A study of Drosophila melanogaster with 4 samples.

Results

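Annotated promoters of long noncoding RNAs (lncRNAs) were followed in fly testes with and without knockdown of kmg. Start positions were read by cap analysis of gene expression (CAGE), in which each sequenced tag marks the capped 5′ end of an RNA and its strand. A start cluster was taken as a lncRNA promoter when its dominant position, the base with most tags, lay within 100 bp of a same-strand annotated transcription start site (TSS) of a gene whose symbol begins with lncRNA: or asRNA:. Clusters with a same-strand protein-coding TSS nearer were not taken. Where a coding TSS was equally near, as for 15 clusters, the cluster was kept, and its tags could also be coding starts. The roX genes of dosage compensation were left out. This rule gave 849 clusters of the 43632 in the consensus list, from 821 of the 2448 annotated genes of that kind. Of these clusters, 678 belonged to lncRNA: genes and 171 to asRNA: genes, which are named for lying antisense to another gene.

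The KmgKD group carried bamGAL4 with KmgRNAi, and the control group carried bamGAL4 alone. The driver bamGAL4 switches on transgenes in late spermatogonia, so somatic cells of the testis are not its target, while the RNA came from whole testes of Drosophila melanogaster. Each library was made from 10 µg of RNA of 150 pairs of testes, from males 0 to 2 days old that had been moved to 29 °C as eggs and early larvae after a cross of 3 days at 25 °C. There were 2 libraries per group, which the deposited tables give as 1 pooled value per group. No spread between replicates can be had from these values, no p-value was computed, and every difference below is between pooled libraries. Reads were 150 bp in KmgKD and 76 bp in control, so read length and genotype cannot be told apart.

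Most fly lncRNAs have no known function. Many are transcribed in the testis, where spermatocytes switch on a large set of genes that other tissues keep silent. Kmg has zinc fingers, is made in spermatocytes and binds the nucleosome remodeler Mi-2, and the study concerns its role in keeping unscheduled promoters silent during germ cell differentiation. Annotated lncRNA promoters are a place to look for such starts at genes other than protein-coding ones.

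There were 34975246 tags in KmgKD clusters and 56519714 tags in control clusters. Levels are tags per 1000000 tags in a group's clusters (TPM). A CAGE tag is counted once per RNA whatever its length, so TPM can be compared between genes. The kmg gene itself stood at 11.6 TPM in KmgKD and 48.5 TPM in control. Over the 25902 consensus clusters called in both groups, the median log2 ratio of KmgKD to control was 0.71, and values called rescaled below have this shift taken out. Sums over promoters of marker genes also differed: 6 muscle sheath genes at 267 TPM in KmgKD and 1065 TPM in control, 5 accessory gland genes at 5.78 and 157 TPM, and 5 of 7 germline genes at 2620 and 4127 TPM. No promoter cluster was assigned to vas or bam in either group. A TSS shared between genes was assigned to a single gene, so this does not show that vas or bam had no start. The germline sum turned mostly on dj (541 TPM in KmgKD and 2716 TPM in control), and can was also lower in KmgKD (4.52 and 13.4 TPM). The other measured germline genes, Mst87F (2021 and 1370 TPM), aly (13.1 and 8.83 TPM) and fzo (40.2 and 18.5 TPM), were higher in KmgKD. Among the muscle sheath genes, Act87E was furthest apart (83.8 TPM in KmgKD and 598 TPM in control). Mhc was higher in KmgKD (20.1 and 15.6 TPM) and the rest were lower. The rises of Mst87F, aly and Mhc were smaller than the 1.64-fold shift that rescaling takes out. In bulk testes, fewer cells of a type and less RNA per cell cannot be told apart. The part of these marker sums in the results below was not tested.

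Changes were given as log2((KmgKD + 1) / (control + 1)) on the TPM scale, which understates changes of low clusters. A cluster was called gained at 2 or above and lost at -2 or below, a 4-fold rule, among clusters that reached 1 TPM in KmgKD or in control. Of the 849 lncRNA promoters, 840 reached that level. They spread widely in both directions: 161 were gained (19.2%), 113 were lost (13.5%) and 566 were neither. The background for these counts was 33.1% gained and 3.61% lost over all 43134 tested clusters, most of which lie away from annotated promoters, and 6.57% gained and 7.9% lost over the 11394 tested clusters at protein-coding TSSs. Within 2-fold stood 300 lncRNA promoters (35.7%) and 6456 protein-coding promoters (56.7%). The split between gained and lost depended on the scaling. Rescaled, 105 lncRNA promoters were gained (12.5%) and 152 lost (18.1%), so that gained promoters were 40.9% of those called instead of 58.8%. Protein-coding promoters were then 3.53% gained and 13% lost, and all tested clusters 20.7% gained and 5.64% lost. On either scale both shares were larger for lncRNA promoters than for protein-coding promoters.

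**Figure D1:**
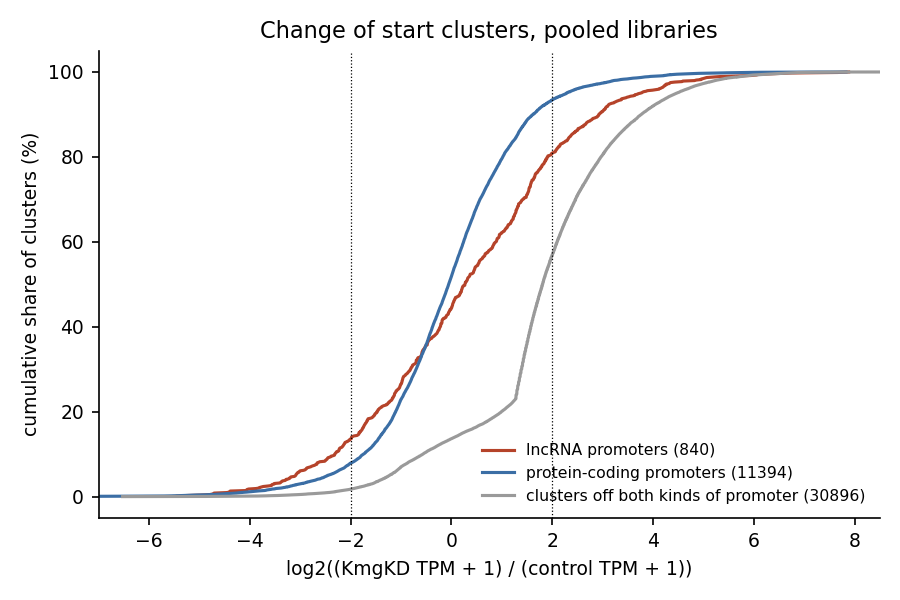
Cumulative share of tested clusters (percent) by log2((KmgKD TPM + 1) / (control TPM + 1)) for 840 lncRNA promoters, 11394 protein-coding promoters and 30896 clusters off both kinds of promoter; dotted lines mark the 4-fold rule. The lncRNA curve lies above the protein-coding curve at -2 (13.5% against 7.9% lost) and below it at 2.

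The median log2 ratio of lncRNA promoters was 0.27, with the middle 50% of promoters from -1.08 to 1.64. That of protein-coding promoters was -0.05, with the middle 50% from -0.91 to 0.79. After rescaling the medians were -0.29 for lncRNA promoters and -0.65 for protein-coding promoters, so the sign of the lncRNA median rests on the scaling. Summed over all 849 clusters, lncRNA promoters held 32063 TPM in KmgKD and 21117 TPM in control, a ratio of 1.52, which turned to 0.926 after rescaling. Protein-coding promoters held 667025 TPM in KmgKD and 890990 TPM in control, 1.34-fold lower, or 2.19-fold lower after rescaling.

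**Figure D2:**
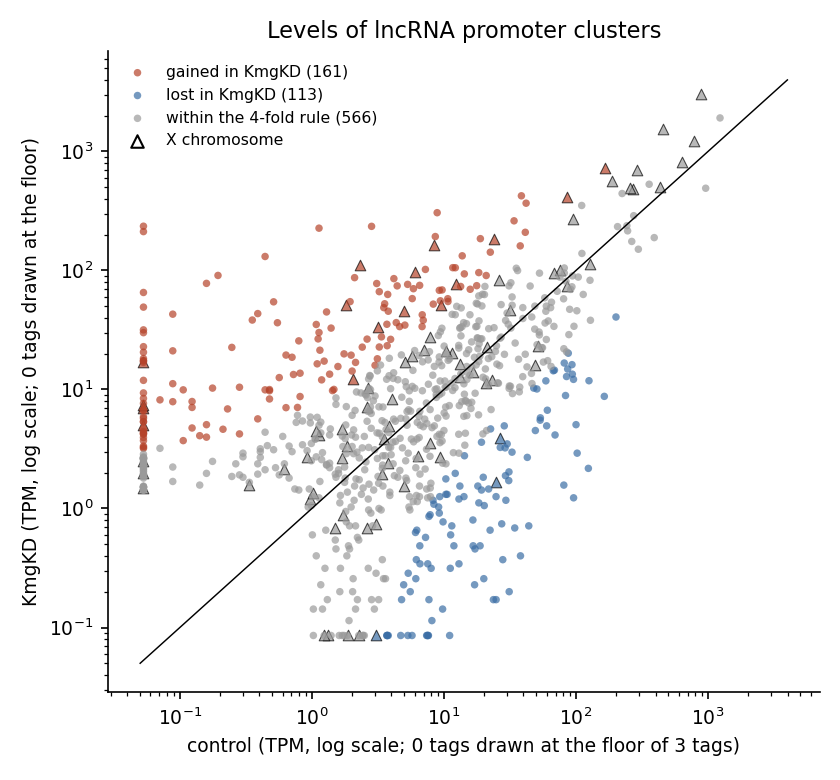
Level of each of the 840 tested lncRNA promoters in KmgKD (vertical axis, TPM) against control (horizontal axis, TPM), both on log scales; colours mark gained, lost and other promoters, triangles mark the X chromosome and the line marks equal levels. Clusters with 0 tags are drawn at the floor of 3 tags, and X-linked promoters make up 11 of the 20 that reach 300 TPM in either group.

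Gained promoters had a median of 26.4 TPM in KmgKD (3.20 to 727) and 1.13 TPM in control (0 to 167). In 33 of the 161, no control cluster had been called, and 128 had one. Among gained protein-coding promoters a smaller share, 459 of 749, had a control cluster. The 12 largest gains included 10 with under 2 TPM in control. The cluster of lncRNA:CR45672, on chromosome 3L from 11592709 to 11593036 on the minus strand (dm6), had 8220 KmgKD tags (235 TPM) and 0 control tags, at least 4428-fold higher over a floor of 3 control tags. Its dominant start lay 46 bp upstream of the annotated one, in a region between protein-coding genes. The promoter of lncRNA:CR44146, on 2L from 20794747 to 20794948 on the plus strand and antisense to vari, a gene of cell junctions, had 7407 KmgKD tags (212 TPM) and 3 control tags, a ratio of 3990 (95% counting interval 1365 to 19352). Both were thus near or at 0 in control and among the strongest lncRNA promoters of the knockdown.

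Further gained promoters had clear but low control levels. On 3L, lncRNA:CR43929 (20921685 to 20921915, minus strand) stood at 226 TPM in KmgKD and 1.13 TPM in control, 200-fold (156 to 260). The single-exon gene lncRNA:CR44551 on 3L (12302430 to 12302750, minus strand) stood at 234 TPM in KmgKD and 2.83 TPM in control, 82.8-fold (70.8 to 97.4). On 2L, lncRNA:CR44409 (17429706 to 17429799, plus strand) lies antisense to Dif, an immune transcription factor of the NF-κB family, and stood at 131 TPM in KmgKD and 0.442 TPM in control. The promoter of Dif itself was at 7.38 TPM in KmgKD and 11.1 TPM in control, a log2 ratio of -0.53. The antisense start was thus called gained where the start of the coding gene across from it was not called.

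The rest of the 12 followed the same pattern at lower KmgKD levels. Those with few control tags were lncRNA:CR45390 (90.7 TPM in KmgKD and 0.195 TPM in control), lncRNA:CR45729 (77.8 and 0.159 TPM) and lncRNA:CR46199 (42.9 and 0.0885 TPM). Those with 0 control tags were lncRNA:CR42836 (65.2 TPM in KmgKD, at least 1229-fold higher) and lncRNA:CR45415 (49.1 TPM in KmgKD, at least 926-fold higher). The list closed with lncRNA:CR45293 (54.4 TPM in KmgKD and 0.513 TPM in control) and the X-linked lncRNA:CR41352 (110 and 2.32 TPM). All 12 were also gained after rescaling, at log2 ratios of 4.36 to 7.17. Of these 12, 10 lay outside protein-coding genes and 2 lay antisense to one.

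Among gained promoters, 23 reached 100 TPM in KmgKD. The strongest that passed on both scales were lncRNA:CR43881 on 3L, at 423 TPM in KmgKD and 38.6 TPM in control, lncRNA:CR45203 on 3R, at 367 and 41.9 TPM, and lncRNA:CR44983 on 2L, at 305 and 8.88 TPM. These 3 were singled out after their values were seen, and the first pair lie inside coding genes on the same strand, RhoGEF64C and CG16779, whose transcripts could share the tags.

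Lost promoters had a median of 1.12 TPM in KmgKD (0 to 40.6) and 18.8 TPM in control (3.06 to 201). All 113 were also lost after rescaling, but rescaling lowers KmgKD levels alone and could not have undone a loss. No KmgKD cluster had been called in 8 of them. Among lost protein-coding promoters, 786 of 900 had a KmgKD cluster. The largest fall on the log2 scale was at lncRNA:CR44300, inside the protein-coding gene CG33144 on the same strand (2R, 10785999 to 10786027, minus strand), with 1.23 TPM in KmgKD and 95.8 TPM in control, 77.9-fold lower (ratio 0.0128, interval 0.00928 to 0.0173). In control its interquantile width, the stretch that holds the central tags, was 2 bp, and 87.5% of its tags fell on 1 base. Because it lies within a coding gene on the same strand, its tags could also be starts of CG33144 transcripts. The antisense gene asRNA:CR44045, inside Axn on 3R (30034859 to 30034962, minus strand), had 2.17 TPM in KmgKD and 124 TPM in control, 57.0-fold lower. On 2L, lncRNA:CR43821 (2797789 to 2797888, plus strand), antisense to the synaptic vesicle gene Syt1, had 1.57 TPM in KmgKD and 80.8 TPM in control. All 3 were thus below 2.2 TPM in the knockdown and above 80 TPM in control.

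Among these 12, the steepest ratios were at promoters of 23.7 to 31.2 TPM in control. At lncRNA:CR45303 on 2L, 7 KmgKD tags stood against 1762 control tags, 156-fold lower. At lncRNA:CR43247 on 3L there were 6 KmgKD tags and 1403 control tags, 145-fold lower, and at lncRNA:CR43436 on 3R there were 6 KmgKD tags and 1338 control tags, 138-fold lower. With so few KmgKD tags the size of these ratios is loosely set: the interval of the lncRNA:CR45303 ratio ran from 0.00258 to 0.0133. The others were lncRNA:CR45560 (0.400 TPM in KmgKD and 38.0 TPM in control), lncRNA:CR44545 (0.715 and 43.9 TPM), lncRNA:CR42756 (0.372 and 27.9 TPM), lncRNA:CR44112 (0.686 and 34.3 TPM), lncRNA:CR45155 inside the neuronal surface gene dpr6 on the opposite strand (2.92 and 102 TPM) and lncRNA:CR43304 (8.75 and 164 TPM). Of the 12, 8 lay between protein-coding genes, 3 antisense to one and 1 inside one on the same strand, and 0 were on the X chromosome. Outside the 12, the highest control level of any lost promoter was that of asRNA:CR31144, with 40.6 TPM in KmgKD and 201 TPM in control.

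**Figure D3:**
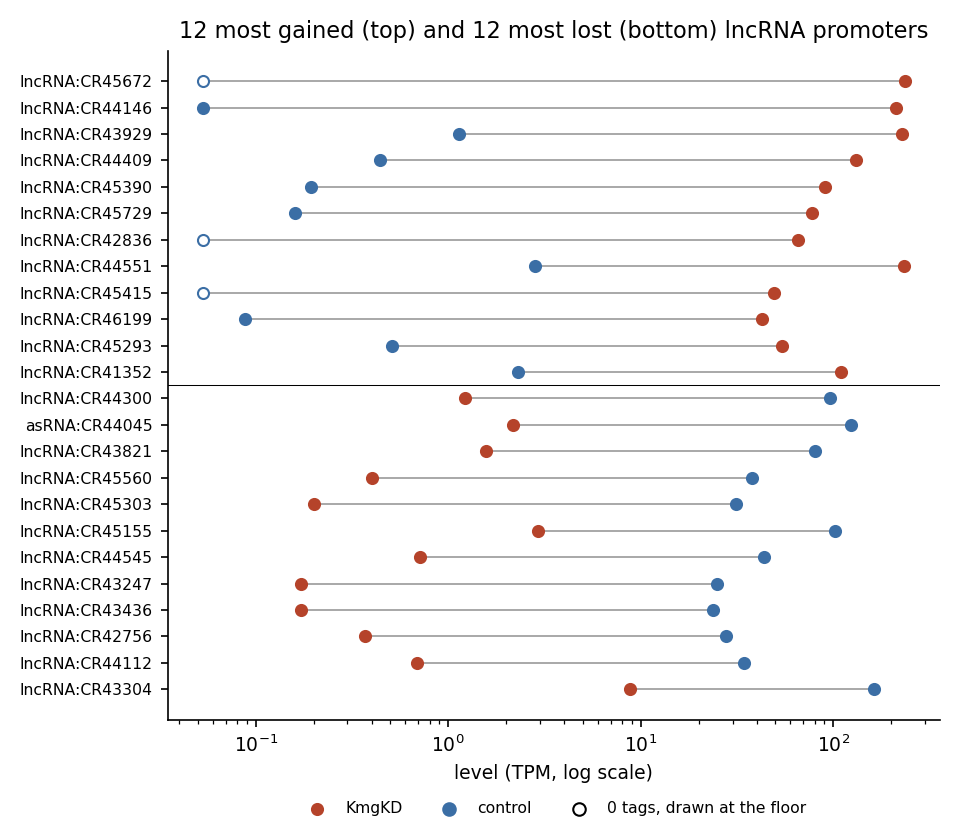
Levels (TPM, log scale) in KmgKD and control of the 12 lncRNA promoters with the largest gains, above the line, and the 12 with the largest losses, below it; 1 point is 1 pooled value per group and open points are 0 tags drawn at the floor of 3 tags. The gained promoters reach 42.9 to 235 TPM in KmgKD, and the lost promoters stand at 0.172 to 8.75 TPM there.

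Of the 20 lncRNA promoters that reached 300 TPM in either group, 11 were X-linked, and none of the 20 was lost. The highest KmgKD level was that of lncRNA:CR32660 (X, 11920467 to 11920606, minus strand), at 3040 TPM in KmgKD and 885 TPM in control, a log2 ratio of 1.78. It lies inside the coding gene Sclp on the same strand, whose own promoter had 2.74 TPM in KmgKD and 5.43 TPM in control. Next to it, 885 bp away on the same strand, lncRNA:CR43157 stood at 1554 TPM in KmgKD and 455 TPM in control (1.77). A further 921 bp away, lncRNA:CR32661, named here for its place beside these, stood at 503 TPM in KmgKD and 434 TPM in control (0.21). These neighbours thus did not move alike, and none of the 3 passed the rule. Another pair lay 4053 bp apart on the plus strand: lncRNA:CR32657 was gained, at 727 TPM in KmgKD and 167 TPM in control (2.12, or 1.40 rescaled, under the rule), and lncRNA:CR32658 had 1216 TPM in KmgKD and 781 TPM in control at its stronger cluster (0.64, or -0.08 rescaled). Whether reads are shared between these neighbours was not tested. Of the 5 genes, all but lncRNA:CR32661 started 14 or 15 bp upstream of the annotated base, and 83.1% or more of the tags of each of those 4 genes' main clusters fell on 1 base in both groups.

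The other highest levels were not on that stretch of X. On 2R, lncRNA:CR44455 stood at 1908 TPM in KmgKD and 1230 TPM in control (0.63, or -0.08 rescaled), the highest of all lncRNA promoters in control. The X-linked lncRNA:CR43278 stood at 809 TPM in KmgKD and 634 TPM in control (0.35, or -0.36 rescaled). On 2R, lncRNA:CR9284 was at 490 TPM in KmgKD and 958 TPM in control (-0.97, or -1.68 rescaled). For the first pair the direction turned with the scaling, and none of these passed the rule. The 10 highest clusters took 36.0% of the lncRNA promoter tags in KmgKD and 30.4% in control.

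The X chromosome carried 81 lncRNA promoters, 9.54% of them, and 15.4% of the protein-coding ones. It held 39.0% of the lncRNA promoter tags in KmgKD and 25.6% in control, against 11.3% and 7.39% of the protein-coding promoter tags. The X-linked sum was 12502 TPM in KmgKD and 5416 TPM in control, 2.31-fold. The autosomal sum was 19561 TPM in KmgKD and 15702 TPM in control, 1.25-fold. Rescaled, the ratios were 1.41 for X and 0.759 for the autosomes, so the direction of the autosomal sum turned and that of X did not. Without the 6 clusters of the 5 neighbouring genes above, a setting added after seeing the data, the X-linked sum was 5443 TPM in KmgKD and 2688 TPM in control, 2.02-fold, or 1.23-fold after rescaling.

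Losses were few among X-linked lncRNA promoters. On X, 16 of 81 were gained (19.8%) and 3 lost (3.70%), with a median log2 ratio of 0.85. On the autosomes, 145 of 759 were gained (19.1%) and 110 lost (14.5%), with a median of 0.20. After rescaling, 10 were gained and 4 lost on X, and 95 gained and 148 lost on the autosomes. Protein-coding promoters on X were 3.82% gained and 4.68% lost. On the large autosomal arms they were 6.75% (3R) to 7.39% (2R) gained and 7.72% (3L) to 9.48% (2L) lost. A lower share of losses on X was thus seen among protein-coding promoters too. Among autosomal arms, the share of lost lncRNA promoters ran from 10.3% on 3R to 18.9% on 2L, and of gained ones from 10.9% on 2R to 22.9% on 3R. The small chromosome 4 had 7 lncRNA promoters, of which 3 were lost and 0 gained. There, asRNA:CR46065 stood at 0.486 TPM in KmgKD and 16.6 TPM in control, and asRNA:CR44027, which was not called, at 104 TPM in KmgKD and 35.3 TPM in control, both named after their values were seen. The 3 lost X-linked promoters were lncRNA:CR43199 (1.66 TPM in KmgKD and 24.9 TPM in control), asRNA:CR44266 (3.95 and 26.3 TPM) and lncRNA:CR45537 (0 tags in KmgKD and 3.06 TPM in control).

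**Figure D4:**
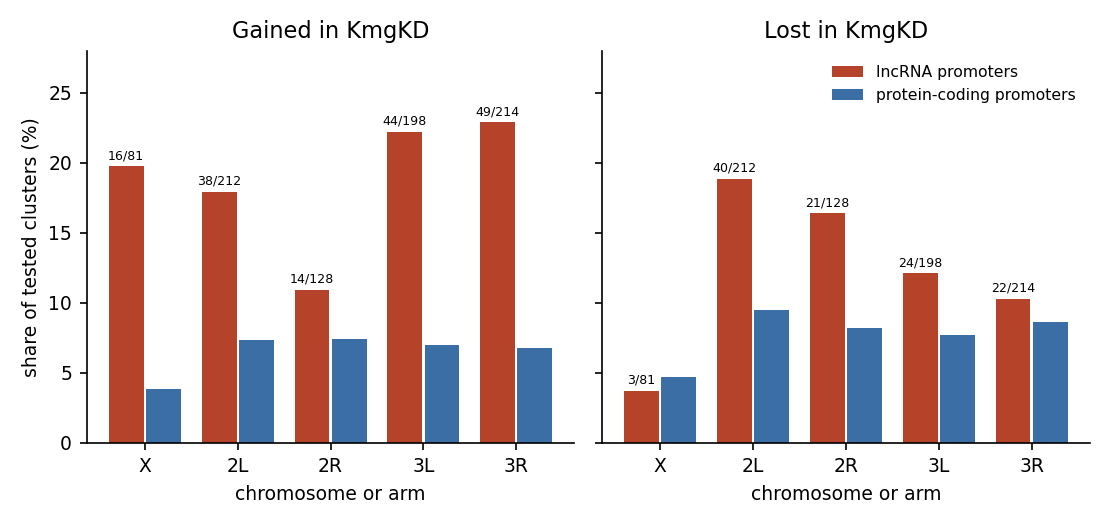
Share of tested promoters (percent) gained in KmgKD (left panel) and lost (right panel) on the X chromosome and the 4 large autosomal arms, for lncRNA promoters and protein-coding promoters; labels give called over tested lncRNA promoters. The X bar for lost lncRNA promoters is 3.70%, against 10.3% to 18.9% on the arms.

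The share of called promoters was set beside level, since lncRNA promoters were weaker than protein-coding ones (medians of 6.20 against 10.6 TPM in KmgKD and 5.38 against 11.3 TPM in control). With a mean of both groups under 10 TPM, 67 of 477 lncRNA promoters were gained (14.0%) and 57 lost (11.9%), and protein-coding promoters of that level were 8.85% gained and 5.09% lost. From 10 to 100 TPM, 80 of 323 were gained (24.8%) and 55 lost (17.0%), and protein-coding promoters were 5.44% gained and 10.0% lost. At 100 TPM or more, 14 of 40 lncRNA promoters were gained (35.0%) and 1 was lost (2.50%), and protein-coding promoters were 2.23% gained and 11.1% lost. Gains thus made up a larger share at higher levels among lncRNA promoters and a smaller share among protein-coding ones. After rescaling, the counts at 100 TPM or more were 11 gained and 1 lost. A promoter can reach the top class through KmgKD alone, so this class is not independent of the change.

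**Figure D5:**
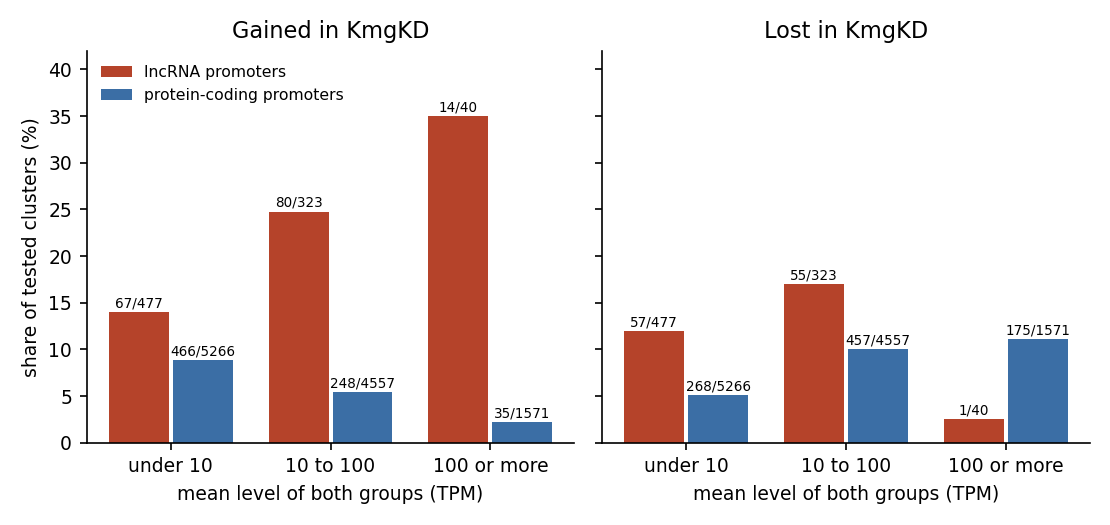
Share of tested promoters (percent) gained in KmgKD (left) and lost (right), by the mean level of both groups (TPM), for lncRNA promoters and protein-coding promoters; labels give called over tested promoters. At 100 TPM or more, 35.0% of lncRNA promoters and 2.23% of protein-coding promoters were gained.

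By position, 436 of the 849 lay between protein-coding genes, 272 inside a coding gene on the opposite strand, 82 inside one on the same strand, and 59 were divergent, with an opposite-strand coding TSS within 500 bp upstream. Gains made up 22.4% of tested promoters between genes, 18.0% of antisense ones, 15.9% of those inside a same-strand gene and 5.17% of divergent ones. Losses made up 13.2% between genes, 16.1% antisense, 15.9% inside a same-strand gene and 0% of divergent ones (0 of 58, 95% Wilson interval up to 6.21%). Divergent promoters were the weakest class, with medians of 3.49 TPM in KmgKD and 2.23 TPM in control, and after rescaling 1 was gained and 2 were lost. The 3 gained divergent promoters were lncRNA:CR32657, asRNA:CR44049 (14.3 TPM in KmgKD and 2.02 TPM in control) and lncRNA:CR44400 (19.4 and 1.98 TPM). The asRNA: genes, named for lying antisense, had 29 of 167 gained (17.4%) and 26 lost (15.6%), and the lncRNA: genes 132 of 673 gained (19.6%) and 87 lost (12.9%).

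Antisense promoters were set beside the coding promoters across from them. For 200 antisense promoters the promoter clusters of the overlapped coding gene summed to at least 1 TPM. That sum is taken as its coding promoter here. Across these pairs, which share libraries and are not independent replicates, the log2 ratios had a Pearson r of -0.02 and a Spearman rho of -0.01. Of the 37 gained antisense promoters, 28 faced a coding promoter within 2-fold, 2 faced a gained and 1 a lost one. Of the 29 lost, 20 faced a coding promoter within 2-fold, 4 faced a gained and 0 a lost one. Facing the 134 antisense promoters that were not called, 80 coding promoters stood within 2-fold, 12 were gained and 8 lost. The shares within 2-fold were thus 75.7% beside gained, 69.0% beside lost and 59.7% beside uncalled antisense promoters. Over all protein-coding promoters the share was 56.7%, but that counts single clusters and not sums per gene, so it is not a like measure.

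The 4 opposite pairs with a lost antisense start were named after their values were seen. Inside Axn, which encodes a scaffold that holds back Wnt signalling, asRNA:CR44045 was lost as given above, while the Axn promoters stood at 40.3 TPM in KmgKD and 9.09 TPM in control (2.03). The same gene holds lncRNA:CR46111 on its own strand, at 6.69 TPM in KmgKD and 60.6 TPM in control. Within Gba1b, which encodes a lysosomal glucocerebrosidase, asRNA:CR44052 had 2.77 TPM in KmgKD and 14.3 TPM in control, while Gba1b had 82.0 TPM in KmgKD and 7.75 TPM in control. Within Pex23, asRNA:CR43872 had 1.26 TPM in KmgKD and 24.8 TPM in control, while Pex23 had 16.6 TPM in KmgKD and 0.920 TPM in control. Within dpr3, lncRNA:CR44055 had 14.5 TPM in KmgKD and 68.6 TPM in control, while the dpr3 promoter had 19.8 TPM in KmgKD and 0 tags in control. These 4 pairs were picked for a lost antisense start and a gained coding promoter, so their opposite direction is not a separate result. Rescaled, Axn fell under the rule (1.34), and the other 3 coding promoters stayed above it. Of the divergent promoters, 47 had a coding partner of at least 1 TPM. There, lncRNA:CR32657 and its partner CG15734, 172 bp away, were both gained, CG15734 at 565 TPM in KmgKD and 84.1 TPM in control.

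Promoter shape differed from that of protein-coding genes. The interquantile width is the distance in bp that holds the central tags of a cluster, and a cluster of 10 bp or less was called sharp. In KmgKD 95 of 818 lncRNA promoters were sharp (11.6%, 95% Wilson interval 9.60 to 14.0), and in control 104 of 774 (13.4%, 11.2 to 16.0). Protein-coding promoters were 24.4% sharp in KmgKD and 27.3% in control. Median widths were alike, at 44 bp in KmgKD for both kinds of promoter, and at 39 bp for lncRNA and 38 bp for protein-coding promoters in control. The intervals cover counting error over clusters only. At 100 TPM or more the order of the kinds was the other way: 12 of 40 lncRNA promoters were sharp in KmgKD (30.0%) and 14 of 39 in control (35.9%), against 14.1% and 16.5% of protein-coding ones. On X, 8 of 14 lncRNA promoters of that level were sharp in KmgKD and 7 of 14 in control, and protein-coding ones were 29.0% sharp in KmgKD and 30.1% in control. On the autosomes, 4 of 26 lncRNA promoters of that level were sharp in KmgKD (15.4%) and 7 of 25 in control, so in KmgKD the autosomal share was close to the protein-coding one. Gained lncRNA promoters were 7.45% sharp in KmgKD (4.31 to 12.6) with a median width of 51 bp, and lost ones were 9.73% sharp in control (5.52 to 16.6) with a median of 41 bp.

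Dominant starts were mostly kept. Among 301 lncRNA promoters of at least 5 TPM in both groups, 175 had the same dominant base (58.1%) and 95 differed by more than 10 bp (31.6%, 26.6 to 37.0). Protein-coding promoters had 64.0% on the same base and 26.6% moved by more than 10 bp. The largest move was 115 bp, at asRNA:CR44115 on 2L, which was also gained at 38.1 TPM in KmgKD and 6.97 TPM in control and was named for this move. The dominant start lay a median of 24 bp from the annotated TSS over all members, 28 bp in gained and 18 bp in lost promoters, and on the annotated base in 34 of 849. Within 10 bp of it lay 30 of 161 gained (18.6%) and 36 of 113 lost promoters (31.9%). Gene structure was alike: 64.0% of gained, 63.7% of lost and 59.5% of other promoters belonged to single-exon genes, and 4 members lay in an annotated transposable element. At the edge of the rule, 29 members lay 91 to 100 bp from the TSS, of which 5 were gained and 1 lost, and of 22 clusters 101 to 110 bp away 5 were gained and 2 lost. Just under the 4-fold rule, 8 promoters had log2 ratios of 1.9 to 2 and 7 of -2 to -1.9.

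Starts inside the same genes, away from annotated starts, were mostly higher in KmgKD. In 165 member genes there were 223 such clusters outside same-strand coding genes. Of the 220 tested, 70 were gained (31.8%), 1 was lost, and 92 had no control cluster. All clusters off both kinds of promoter had 43.2% gained and 1.77% lost, and 15790 of the 30896 tested had no control cluster. The share gained was 14 of 43 in genes whose promoter was gained, 5 of 19 in genes whose promoter was lost and 51 of 154 in genes whose promoter was not called. Rescaled, 38 of the 220 were gained and 1 lost, against 27.3% and 2.6% of all clusters off both kinds of promoter. The largest, named after its value was seen, was in lncRNA:CR44535 on 3L, at 67.1 TPM in KmgKD and 0.584 TPM in control, while the promoter of that gene had 2.37 TPM in KmgKD and 4.12 TPM in control. Where 1 gene had 2 or more tested promoter clusters, these could differ: of 26 such genes, 8 had clusters over 2 log2 units apart. Whether the clusters of a gene lay at separate annotated starts was not tested. The widest gap, chosen after the values were seen, was in lncRNA:CR46268 on 2L. There, 1 cluster was at 22.6 TPM in KmgKD and 0.248 TPM in control and the other at 2.77 and 3.59 TPM.

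Of the 40 lncRNA genes with a name of their own, 8 had a promoter in use by the rule. The nuclear stress RNA gene lncRNA:Hsromega, which organises speckles of RNA-binding proteins, stood at 74.2 TPM in KmgKD and 31.1 TPM in control, a log2 ratio of 1.23 (0.53 rescaled) that did not pass. In control 96.3% of its tags fell on 1 base, and in KmgKD 51.7%. The gene lncRNA:Yu on 2R was lost, at 11.8 TPM in KmgKD and 125 TPM in control, 10.6-fold lower (ratio 0.0945, interval 0.0853 to 0.104). Of the 15 genes whose symbol is TS and a number, 5 had a promoter in use. Of these, lncRNA:TS9 was gained at 10.0 TPM in KmgKD and 1.47 TPM in control (2.16, or 1.52 rescaled, under the rule). The others did not pass: lncRNA:TS25 had 10.0 TPM in KmgKD and 8.58 TPM in control, lncRNA:TS27 1.97 and 1.59 TPM, lncRNA:TS11 1.46 and 0.743 TPM, and asRNA:TS15 0 tags in KmgKD and 2.42 TPM in control, at least 28.3-fold lower over a floor of 3 tags. The directions of lncRNA:TS25 and lncRNA:TS27 turned with rescaling, to -0.43 and -0.24. Last, lncRNA:marge had 0 tags in KmgKD and 1.40 TPM in control, at least 16.3-fold lower.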

How the data were processed

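Start positions were measured by CAGE in 2 KmgKD and 2 control libraries of testis RNA. The submitters' processing notes list BDGP6 and dm6 as builds and STAR 2.7.11b, Trim Galore 0.6.6 and bedtools as tools, with no roles. The sources used here do not give the program that called the clusters. Tables as deposited by the authors give tag counts per cluster, pooled over the libraries of a group, in a column named tpm that holds whole numbers. The authors' tables also give each cluster's interquantile width in bp and its dominant position. Cluster starts in the files count from 0, and coordinates here count from 1.

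The tags of all same-strand tag clusters that overlap a consensus cluster were summed and scaled to 1000000 tags per group. Starts and gene models came from Ensembl release 115 (BDGP6, dm6 coordinates). Ratios have exact binomial intervals and shares Wilson intervals at 95%, which cover counting error only, as does the floor of 3 tags for a count of 0. Where a consensus cluster held more than 3 tags beyond both groups' clusters, these were the floor. Consensus clusters hold at least 50 tags. The code was tested on simulated data. Python 3.11.15, pandas 2.3.3 and scipy 1.17.1 were used.

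The members, gene lists and rules were chosen with earlier results of these data known. Named were the 12 largest gains and losses, the 6 highest levels in each group and every gene not named by CR and a number; all others were chosen after their values were seen or make up a whole class of 5 or fewer. Of the other marker lists, promoters summed to 59.3 TPM in KmgKD and 39.4 TPM in control for cyst cells, 15.4 and 90.4 TPM for the hub, 2.14 and 65.3 TPM for neurons, 0.429 and 15.2 TPM for hemocytes, and 22.3 and 134 TPM for fat body. Single genes carried 4 of these sums: Fas3 that of the hub (5.58 TPM in KmgKD and 82.9 TPM in control), Tsf1 that of fat body (16.9 and 133 TPM), and nSyb and Hml, the only genes measured, those of neurons and hemocytes. The other hub genes, upd1 (3.46 TPM in KmgKD and 2.26 TPM in control) and hh (6.40 and 5.18 TPM), were higher in KmgKD. So were the other fat body genes, Fbp1 and Lsp2. Of the cyst cell genes, so (32.1 and 10.1 TPM) and zfh1 (6.23 and 1.91 TPM) were higher in KmgKD. The others, tj (3.00 and 4.37 TPM) and eya (18.0 and 23.0 TPM), were lower. The rises of upd1, hh and the cyst cell sum were smaller than the 1.64-fold shift that rescaling takes out. Alternatives changed the scaling, pseudocount, level filter, TSS window, neighbouring coding promoters and the sum over tag clusters. Core promoter motifs and sequences were not analysed here.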

Additional observations from a re-analysis of the deposited data

How the results depend on the processing

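With 1 pooled value per group, leaving out a library was not possible. No paired analysis was possible because the tables hold no value per library. Both shares, gained and lost, were larger for lncRNA than for protein-coding promoters under the 8 alternatives run on both; the other 3, on neighbouring coding starts and 1 cluster per gene, changed the lncRNA side alone. Rescaling by the median of clusters present in both groups gave 105 gained lncRNA promoters, a median log2 ratio of -0.29, and 402 gained and 1477 lost protein-coding promoters; 5 of the 39 named promoters changed sign, none of them called, and 2 gains (lncRNA:CR32657 and lncRNA:TS9) no longer passed. A pseudocount of 3 TPM gave 106 gained and 64 lost lncRNA promoters, and 361 gained and 598 lost protein-coding ones, and lncRNA:TS9 no longer passed (1.54). With 0.5 TPM, 1162 protein-coding promoters were gained, and asRNA:TS15 passed as lost (-2.55). A TSS window of 500 bp gave 364 gained lncRNA promoters, a median of 1.21, and 2695 gained protein-coding ones. Counted as sharp at 20 bp, lncRNA promoters were 18.3% in KmgKD and 22.1% in control, and counted as shifted at over 50 bp they were 6.98%. The other settings kept the lncRNA counts within 1.5 times, among them the filters on level, a window of 50 bp, leaving out members near coding starts (145 gained and 110 lost without those within 500 bp of one) and, added after seeing the data, 1 cluster per gene (159 and 113). Clusters need 50 tags in the consensus list, so weaker starts were not measured.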

Other observations

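Of the genes with a name of their own, 8 had no cluster at an annotated start of their own but had clusters inside the gene, on its strand and outside same-strand coding genes. Other noncoding genes at the same place were not separated from them. In lncRNA:bxd of the bithorax complex, 3 such clusters summed to 197 TPM in KmgKD and 91.6 TPM in control. In lncRNA:iab8, the noncoding gene of the same complex that hosts a microRNA, 3 clusters summed to 35.5 TPM in KmgKD and 3.95 TPM in control. In lncRNA:let7C, the host of the let-7 microRNA cluster, 4 clusters summed to 26.2 TPM in KmgKD and 6.05 TPM in control. In lncRNA:cherub, known from neural stem cell tumours, 3 clusters summed to 2.26 TPM in KmgKD and 6.25 TPM in control. In lncRNA:dntRL, 2 clusters summed to 35.5 TPM in KmgKD and 0.372 TPM in control. The other 3 had 1 cluster each: lncRNA:TS1 with 6.63 TPM in KmgKD and 0.637 TPM in control, asRNA:bsAS with 2.57 TPM in KmgKD and 0 tags in control, and asRNA:ASTR with 0.572 TPM in KmgKD and 3.54 TPM in control. Of the 40 genes with a name of their own, 24 had no such cluster and no member.

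Starts too weak for the consensus list added genes in both groups. Outside it, 103 KmgKD and 74 control tag clusters lay at lncRNA starts by the same rule, in 65 and 56 genes with no member. None held more than 49 tags, 1.40 TPM in KmgKD and 0.867 TPM in control.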
